A study of Mus musculus with 20 samples.

Results

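Stable intermediate methylation windows were stretches of 1000 bp in the microglial genome that were neither methylated nor unmethylated, but sat near the middle of the scale to a similar degree in each of the 5 wild-type mice of 10 months. They were selected on measured values. An autosomal window was taken when its mean methylation over the 5 wild-type mice of 10 months was from 35% to 60% and the standard deviation (SD) over these mice was under 5 percentage points. Of 2224981 autosomal windows, 36607 (1.65%) met this rule, and 36388 of them were also measured at 7 months. Another 153564 windows had a wild-type mean in the same range with a larger SD, and these other intermediate windows served for comparison.

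The assay was enzymatic methyl-sequencing (EM-seq) of DNA, in which unmethylated cytosines are converted by enzymes and methylated ones are kept, in microglia isolated from the whole brain of single male mice. All mice had the B6D2F1/J background, a cross of C57BL/6J and DBA/2J. The mThy1-α-synuclein mice (labelled HEM) carried a human α-synuclein transgene driven by the Thy1 promoter of the mouse, used for expression in neurons, and the wild-type mice lacked it. There were 5 mThy1-α-synuclein and 5 wild-type mice at 10 months, and 6 mThy1-α-synuclein and 4 wild-type mice at 7 months. The labels name IBA1 for the selection of the cells and the methods name CD11b beads. Each value is the methylated fraction of a window, printed in percent, and the depth behind it is unknown.

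As a check of the cell type, 1 window at an annotated transcript start was read per gene in wild-type mice at 10 months. This start need not be the main start of the gene. For Mrc1 and Flt1 the windows read were chr2:14328001 and chr5:147634001, whereas their promoter members begin at chr2:14230001 and chr5:147727001. Of 25 homeostatic microglia genes, 18 were under 30% methylated in the window read, among them Tmem119, Cx3cr1, Trem2 and Aif1. By contrast, P2ry12, Olfml3 and Slc2a5 were at 89.0% to 91.3%. Itgam was at 45.2%, Csf1r at 40.3%, Mertk at 35.5% and Irf8 at 30.2%. The genes under 30% were 1 of 13 for blood and border immune cells, 4 of 10 for astrocytes, 4 of 10 for the oligodendrocyte lineage, 5 of 8 for vessel cells and 11 of 16 for neurons. The median was 13.6% for homeostatic microglia genes and 6.68% for neuronal genes, so this check did not set microglia apart from neurons.

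A pair of libraries went against their labels at 7 months. In 1 window of Thy1 (chr9:44048001-44049000), chosen from the 6 windows in the gene for its large genotype difference, the 10-month libraries read 30.2% to 35.7% in mThy1-α-synuclein mice and 70.2% to 76.9% in wild-type mice. At 7 months, mThy1-α-synuclein replicate 6 read 73.6% there and wild-type replicate 2 read 31.0%. mThy1-α-synuclein replicates 2 and 3 read 53.7% and 53.1%, between the groups. The main 7-month results are therefore given for the groups as labelled and again without these libraries, that is, without mThy1-α-synuclein replicate 6 and wild-type replicate 2.

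Most CpG sites of a mammalian genome are methylated, while CpG-rich promoters and active regulatory elements are not. A level near the middle can arise where the maternal and the paternal copy differ, as in imprinting, where the cells of a sample differ from each other, or where a window spans the border of an unmethylated element. At imprinted control regions 1 parental copy is methylated in the germ line and stays so in the body. The zinc finger protein ZFP57 helps to keep this mark and recognises the 6 letters TGCCGC when their CpG is methylated. A bulk methylation level does not separate these cases.

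The sequences below come from the RefSeq copy of GRCm38 (the mm10 build, plus strand), and each is the 200-base stretch of a member window with the most TGCCGC letters or, where there was none, the most CpGs. The first set shows members at imprinted loci that held TGCCGC, which is in capitals on either strand (GCGGCA on the plus strand).
Snrpn chr7:60004702-60004901: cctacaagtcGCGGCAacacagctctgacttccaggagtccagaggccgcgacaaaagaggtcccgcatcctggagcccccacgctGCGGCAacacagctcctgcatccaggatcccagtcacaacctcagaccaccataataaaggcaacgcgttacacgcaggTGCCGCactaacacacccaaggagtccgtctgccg
Inpp5f chr7:128688338-128688537: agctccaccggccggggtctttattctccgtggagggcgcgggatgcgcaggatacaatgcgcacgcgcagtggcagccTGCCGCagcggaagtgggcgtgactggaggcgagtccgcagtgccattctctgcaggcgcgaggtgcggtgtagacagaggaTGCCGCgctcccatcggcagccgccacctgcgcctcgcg
Gnas chr2:174299506-174299705: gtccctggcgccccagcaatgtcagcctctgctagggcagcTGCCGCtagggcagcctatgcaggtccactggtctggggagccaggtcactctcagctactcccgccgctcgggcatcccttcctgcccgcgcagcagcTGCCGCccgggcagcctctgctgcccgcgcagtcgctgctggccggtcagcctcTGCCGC
H19 chr7:142580194-142580393: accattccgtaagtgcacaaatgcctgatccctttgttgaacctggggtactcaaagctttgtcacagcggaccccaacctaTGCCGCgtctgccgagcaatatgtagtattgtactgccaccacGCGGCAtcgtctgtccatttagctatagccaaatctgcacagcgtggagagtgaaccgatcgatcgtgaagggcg

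The second set shows members elsewhere: the promoter of Usp35, a CpG-rich window with TGCCGC in capitals, and 3 windows in which the CpGs are in capitals. The first of these lies within 2 kb of an annotated start of Irf8, a transcription factor that microglia need. That start need not be the main one. The others are the promoter of Gpnmb, a glycoprotein of activated microglia, and a window of Sfi1 from the longest run of adjacent members.
Usp35 chr7:97325699-97325898: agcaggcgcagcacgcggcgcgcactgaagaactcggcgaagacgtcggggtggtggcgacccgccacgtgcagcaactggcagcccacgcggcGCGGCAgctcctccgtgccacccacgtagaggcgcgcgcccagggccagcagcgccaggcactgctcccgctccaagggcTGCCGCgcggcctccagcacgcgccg
Irf8 chr8:120744307-120744506: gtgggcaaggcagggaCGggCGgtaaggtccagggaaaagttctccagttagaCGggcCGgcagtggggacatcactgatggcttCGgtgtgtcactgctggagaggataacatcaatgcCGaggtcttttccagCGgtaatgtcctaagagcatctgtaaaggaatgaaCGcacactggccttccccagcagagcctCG
Gpnmb chr6:49036626-49036825: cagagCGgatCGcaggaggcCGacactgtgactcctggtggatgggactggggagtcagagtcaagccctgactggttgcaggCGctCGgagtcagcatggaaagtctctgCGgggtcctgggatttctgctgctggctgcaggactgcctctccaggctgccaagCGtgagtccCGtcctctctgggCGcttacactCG
Sfi1 chr11:3175001-3175200: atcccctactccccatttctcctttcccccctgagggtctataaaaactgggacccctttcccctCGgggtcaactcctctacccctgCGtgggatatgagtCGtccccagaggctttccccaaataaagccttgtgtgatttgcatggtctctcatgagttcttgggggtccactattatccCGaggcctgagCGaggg

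TGCCGC was searched on both strands of all windows. It was present in 6.97% of the members, 3.90% of the other intermediate windows and 6.11% of all autosomal windows. Among windows with at least 20 CpGs in the reference, the shares were 24.6%, 23.8% and 28.9% in the same order. At the imprinted loci described later, 40 of 75 intermediate windows with at least 20 CpGs (53.3%) held it. These sets were not matched for CpG number, and TGCCGC itself holds a CpG, so the part of CpG number was not tested. The named members at Plagl1, Grb10, Igf2r-Airn, Kcnq1ot1, Mcts2, Nnat, Cdh15, Dlk1-Meg3, Rasgrf1, Igf2, Cdkn1c, Ndn and Magel2 held 0 copies. A named member need not lie in the imprinted control region of its locus. Other intermediate windows with at least 20 CpGs at Plagl1, Grb10, Igf2r-Airn, Kcnq1ot1, Nnat, Dlk1-Meg3 and Rasgrf1 did hold TGCCGC, with up to 6 copies. Such windows at Mcts2, Cdh15, Igf2 and Ndn held 0, and Cdkn1c and Magel2 had no such window. The named members at Peg3, Peg10-Sgce, Gpr1-Zdbf2 and Mkrn3 held at least 1, as did those printed above.

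The level of the members was mostly retained in mice that the rule did not use. The mean lay from 35% to 60% in mThy1-α-synuclein mice at 10 months in 81.0% of the members, in wild-type mice at 7 months in 81.6%, and in mThy1-α-synuclein mice at 7 months in 82.6%. Without the 2 discordant libraries the 7-month shares were 80.1% and 82.0%. For the other intermediate windows the same shares were 75%, 76.5% and 77.7%. All 4 group means, as labelled, were in the range in 24572 of 36388 members (67.5%).

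The small spread was retained much less. By construction the SD of the members in wild-type mice at 10 months was under 5 points, with a median of 3.92. In mThy1-α-synuclein mice of the same age the median SD was 6.26 points, and 31.9% of the members had an SD under 5, beside 18.0% of the other intermediate windows and 57.03% of all autosomal windows. The median SD was 6.21 points in wild-type and 6.71 in mThy1-α-synuclein mice at 7 months, and 5.53 and 6.50 without the discordant libraries. Thus the name stable holds for the wild-type mice on which the windows were selected, and in the other groups as labelled 25.7% to 34.5% of the members had an SD under 5 points. Without the discordant libraries the 7-month shares were 43.7% in wild-type and 29.7% in mThy1-α-synuclein mice, and over all autosomal windows they were 63.1% and 55.1%. Only 1636 members (4.50%) had a mean in the range and an SD under 5 points in all 4 groups, and 3309 (9.09%) were from 35% to 60% in all 20 libraries, with the groups as labelled.

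**Figure D1:**
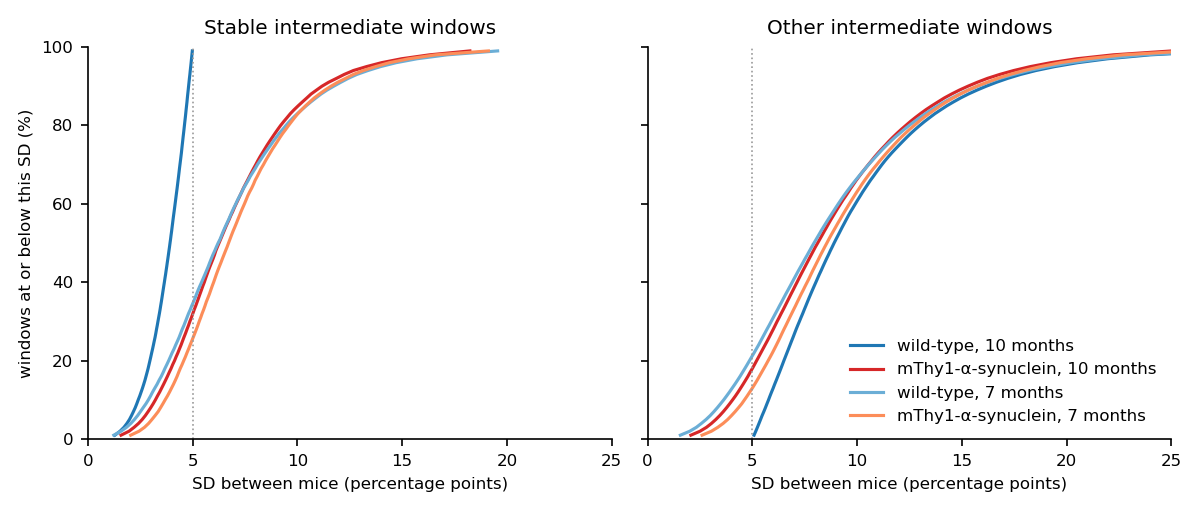
Percentage of windows (vertical axis) at or below a given SD between mice (horizontal axis, percentage points) in each group, for stable intermediate windows (left) and other intermediate windows (right), with the limit of 5 points dotted. The wild-type curve at 10 months ends at 5 points on the left because it chose the windows, and the other 3 groups cross the limit at 25.7% to 34.5% on the left and at 13.01% to 21.2% on the right.

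Windows just inside and just outside the limits of the rule were alike. Members with an SD from 4.9 to 5 points had a median SD of 6.602 points in mThy1-α-synuclein mice at 10 months, and non-members from 5 to 5.1 points had 6.54. The 613 members with a wild-type mean of 35% to 36% and the 616 windows at 34% to 35% had medians of 35.04% and 34.1% in mThy1-α-synuclein mice. The 3484 members at 59% to 60% and the 3949 windows at 60% to 61% had medians of 59% and 59.8%. The members did not gather at 50%: 38.8% of them had a wild-type mean from 55% to 60% and 9.35% from 35% to 40%.

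Members held more CpGs than other intermediate windows. The median was 8 CpGs per window, beside 4 in other intermediate and 7 in all autosomal windows. The share of intermediate windows that were stable increased with this number, from 5.77% at 0 to 2 CpGs through 24.0% at 6 to 10 CpGs to 39.0% above 40 CpGs. The median SD in mThy1-α-synuclein mice over all intermediate windows decreased over the same classes, from 10.8 to 5.24 points.

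Promoters were more frequent among the members than elsewhere. Within 2 kb of a transcription start lay 5833 members (15.9%), beside 11.7% of the other intermediate and 11.7% of all autosomal windows. Exons held 2.48% of the members, introns 32.6% and the space between genes 49.0%, beside 2.83%, 38.2% and 47.3% of all autosomal windows. The share of windows that were members was 1.95% within 250 bp of a start, 2.52% from 500 to 1000 bp and 1.52% beyond 50000 bp. Of the 152 members with more than 40 CpGs, 107 were in promoters (70.4%) and 31 in exons. No promoter share is given for other windows with as many CpGs, so the part of CpG number in these shares was not tested.

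**Figure D2:**
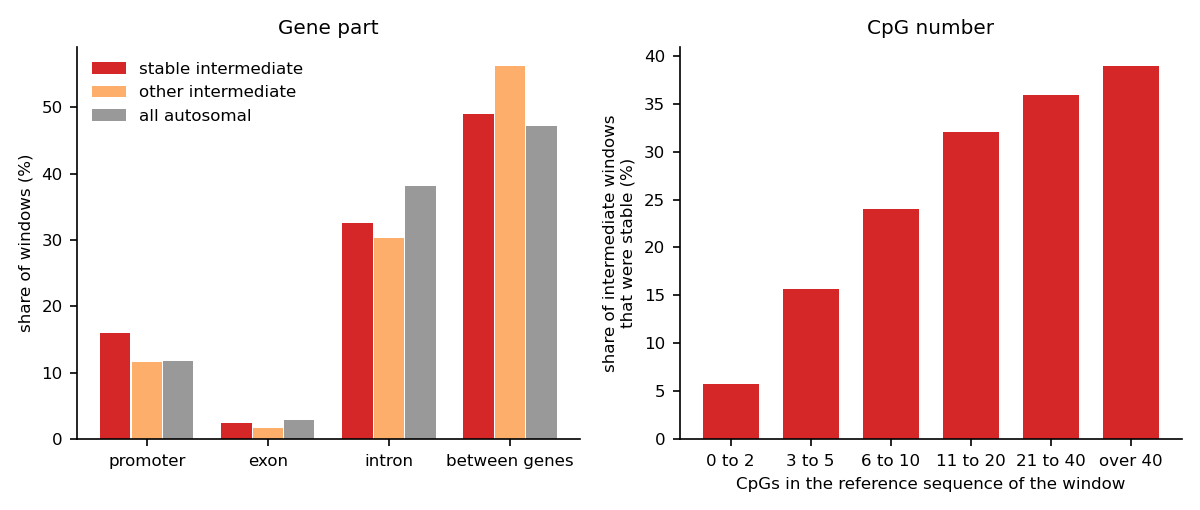
Left, share of windows (%) in each gene part for stable intermediate, other intermediate and all autosomal windows; right, share of intermediate windows that were stable (%) by the number of CpGs in the reference sequence. Promoters took 15.9% of the stable intermediate windows against 11.7% of all, and the stable share increased from 5.77% to 39.0% with the CpG number.

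By its median the methylation dipped locally at the members. In mThy1-α-synuclein mice at 10 months the median level was 51.9% in the member itself, 74.0% in the windows next to it and 78.2% at 10 kb. Of 33598 members with both neighbours measured, 12301 (36.6%) had both at 70% or more, 4334 (12.9%) had both between 30% and 70%, and 3462 (10.3%) had 1 neighbour under 30% and the other at 60% or more. The last arrangement, as at the edge of an unmethylated element, was found at 32.2% of the promoter members. The other intermediate windows showed nearly the same profile, with 37.7%, 13.6% and 7.62%.

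**Figure D3:**
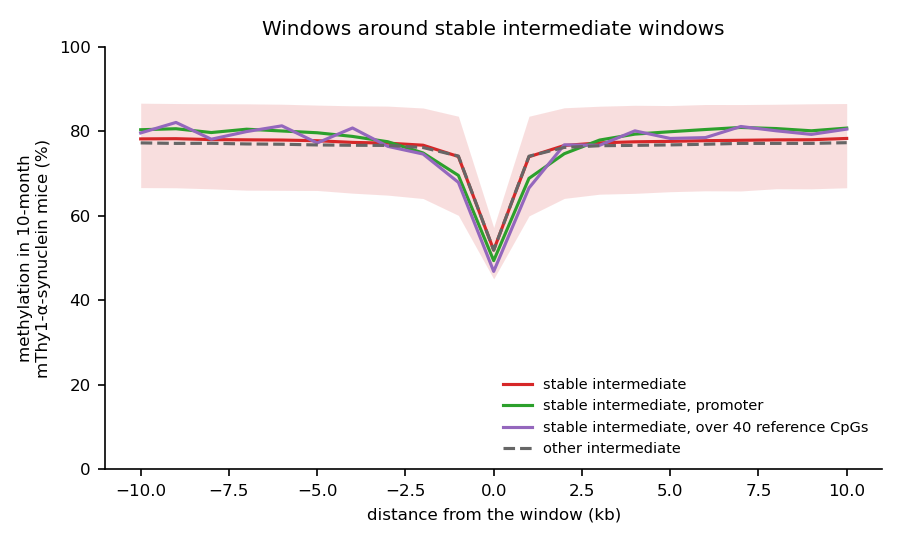
Median methylation in mThy1-α-synuclein mice at 10 months (vertical axis, %) by distance from the window (horizontal axis, kb); the band is the interquartile range over stable intermediate windows. The curves fall to medians of 46.8% to 51.9% in the window itself and return to 74.0% (stable intermediate) at the next window.

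Imprinted loci were examined with a list of 27 loci known in the mouse. Most loci took in their listed genes with a flank of 5 kb. The flank was 10 kb at Gpr1-Zdbf2, 20 kb at Dlk1-Meg3 and 40 kb at Rasgrf1. A window at a locus therefore need not lie in its imprinted control region. The members were 64 of the 1926 windows at these loci (3.32%, beside 1.65% of all autosomal windows), and 22 of the 27 loci held at least 1. Of the 64 members, 23 had at least 20 CpGs. Those at Grb10, Igf2r-Airn, Mcts2, Nnat, Cdh15, Rasgrf1, Igf2, Ndn and Magel2 all had fewer. None of these 64 windows had 50% or more of its sampled 32-base words repeated elsewhere in the genome, beside 6.86% of all members. Of their wild-type means, which the rule used, 34.4% were from 45% to 50% and 25% from 50% to 55%, beside 16.2% and 24.3% of all members.

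At Inpp5f, a phosphatase gene with a transcript variant expressed from the paternal copy in brain, the member chr7:128688001-128689000 lay at a start, overlapped an exon and held 55 CpGs. The wild-type mice of 10 months read 45.6%, 47.0%, 48.2%, 46.0% and 49.0%. The mThy1-α-synuclein mice read 43.9%, 42.8%, 41.3%, 42.1% and 58.2%. Thus 4 transgenic mice were below every wild-type mouse and replicate 5 was above them all. The rule chose members for a small spread in these wild-type mice, which makes such a separation easier. Here and below, a separation at 10 months is therefore only a description. The 7-month means were 48.6% ± 2.60 (SD, n = 4) in wild-type and 46.5% ± 2.55 (SD, n = 6) in mThy1-α-synuclein mice, and 48.2% and 45.9% without the discordant libraries.

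At Snrpn, the imprint of the Prader-Willi and Angelman syndrome region, the member chr7:60004001-60005000 lay 549 bp from the start of Snurf with 35 CpGs and 8 copies of TGCCGC. It read 40.7%, 49.3%, 46.5%, 43.5% and 47.6% in wild-type mice and 42.6%, 47.5%, 44.2%, 45.7% and 35.5% in mThy1-α-synuclein mice at 10 months. The groups overlapped, as they did at 7 months with means of 46.6% ± 5.06 (SD, n = 4) and 44.0% ± 5.65 (SD, n = 6), or 47.8% and 45.4% without the discordant libraries. In the same chromosomal domain lies Mkrn3, which encodes a makorin ring finger protein. Its member chr7:62419001-62420000, a promoter window overlapping an exon, read 38.9% to 47.2% (median 43.4%) in wild-type and 31.2% to 38.1% (median 36.1%) in mThy1-α-synuclein mice at 10 months, without overlap but not called, and 39.7% ± 3.62 (SD, n = 4) against 42.8% ± 2.91 (SD, n = 6) at 7 months. The 7-month difference had the other sign, also without the discordant libraries (39.4% and 43.1%), with an adjusted p of 0.954 and 0.904.

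Gnas, which encodes the stimulatory G protein subunit through several imprinted promoters, held 5 members, all with at least 20 CpGs. The one with the most CpGs, 75, at chr2:174299001-174300000, 1641 bp from a start and overlapping an exon, read 50.5%, 41.7%, 40.8%, 48.2% and 50.8% in wild-type mice and 46.2%, 44.2%, 50.1%, 49.0% and 48.9% in mThy1-α-synuclein mice at 10 months. The start of Peg10, a gene derived from a retrotransposon and needed for the placenta, held the member chr6:4747001-4748000 with 79 CpGs. It read 44.2%, 39.9%, 39.9%, 49.3% and 40.4% in wild-type mice and 55.5%, 45.1%, 43.9%, 54.4% and 38.1% in mThy1-α-synuclein mice. At both windows the groups overlapped and the transgenic means of 47.7% and 47.4% were within the range of the rule.

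Loci that carry the mark on the paternal copy were also represented. In the control region upstream of H19, which directs the expression of H19 and Igf2, the member chr7:142580001-142581000 lay 2357 bp from the H19 start. It read 43.4%, 47.8%, 49.95%, 55.03% and 53.0% in wild-type mice and 55.6%, 45.7%, 48.1%, 45.8% and 58.9% in mThy1-α-synuclein mice at 10 months. The Gpr1-Zdbf2 locus, with marks on both parental copies, held 10 members, the most of any locus on the list. Its member chr1:63261001-63262000 had the smallest spread of all intermediate windows with 20 or more CpGs at these loci, 50.3% ± 0.937 (SD, n = 5) in wild-type mice, with an SD of 3.35 points in mThy1-α-synuclein mice at 10 months. At 7 months it ranged from 41.8% in the discordant replicate 2, and 46.1% without it, to 58.9% in wild-type mice, and from 42.3% to 55.7% in mThy1-α-synuclein mice.

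The limit on the spread left out many intermediate windows at these loci, as it did in the genome. Of the 75 intermediate windows with at least 20 CpGs at the listed loci, 23 (30.7%) were members, beside 36.1% of such windows in the genome. The median wild-type SD was 6.34 points at the loci and 5.93 points in the genome. Mest, an imprinted hydrolase gene, had 4 such windows with wild-type means of 44.8% to 51.4% and SDs of 6.34 to 9.05 points. Zrsr1 had 2, with SDs of 8.97 and 10.1 points. The 3 windows upstream of Rasgrf1 had SDs of 9.89 to 14.8 points. The loci without a member were Zrsr1, Mest, Peg13, Slc38a4 and Nap1l5, and the last had 0 intermediate windows.

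**Figure D4:**
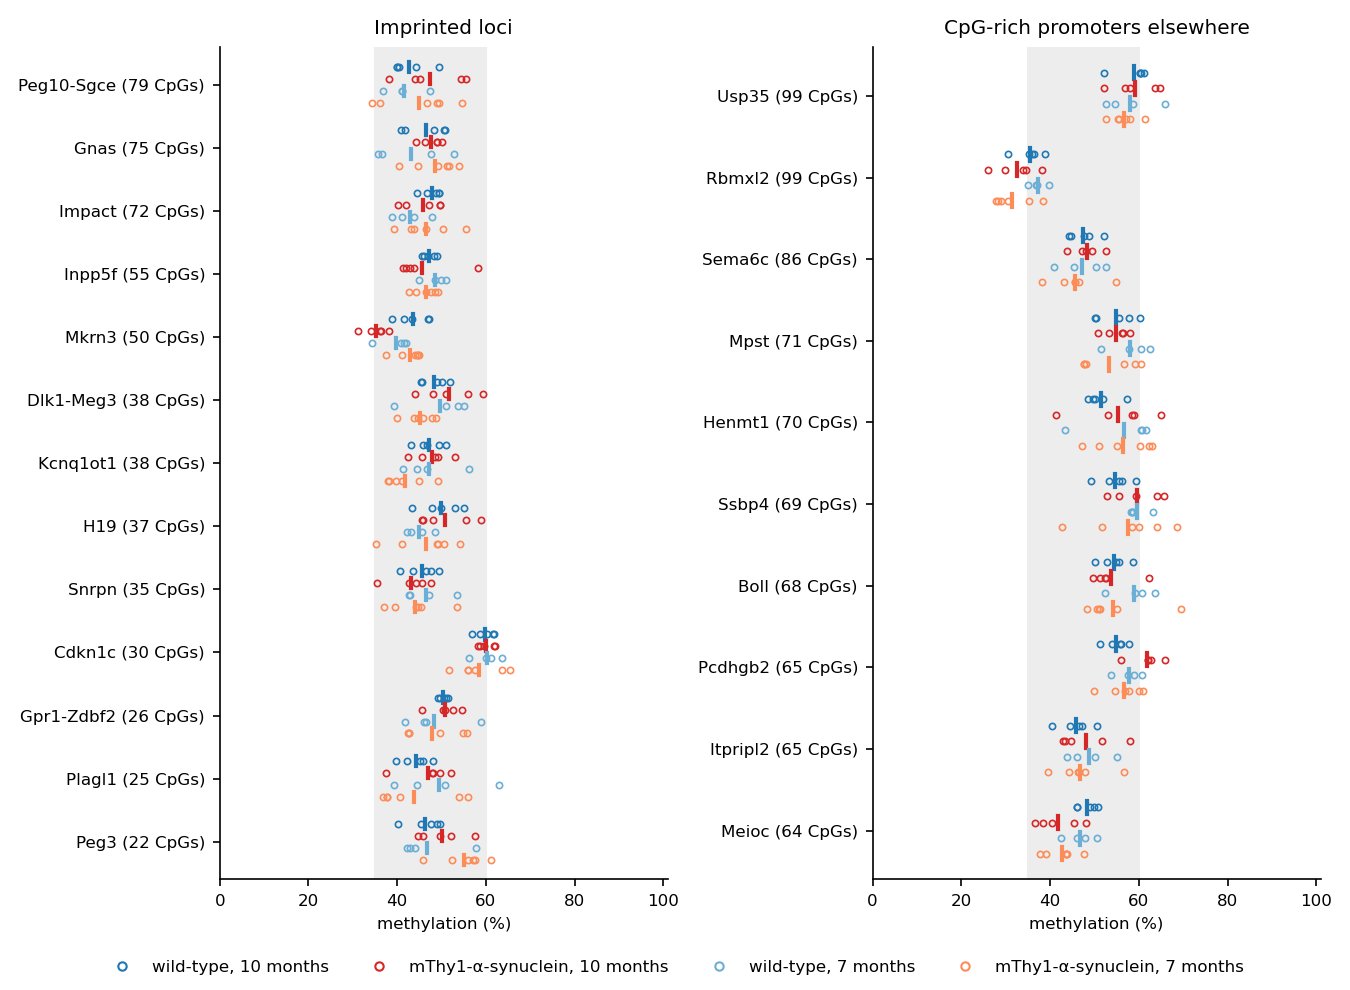
Methylation (%, horizontal axis) of each library (circles) and the group mean (bars) at the member with the most CpGs of each imprinted locus, for those with at least 20 CpGs (left), and at the 10 CpG-rich promoter members away from these loci (right), with the 35% to 60% range shaded. The groups overlap in most windows; at Mkrn3 the 10-month mThy1-α-synuclein mice (31.2% to 38.1%) lie below the wild-type mice (38.9% to 47.2%).

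Away from imprinted loci, the 10 protein-coding promoters whose members held the most CpGs belonged to genes of different roles. Usp35, a ubiquitin protease, held the member chr7:97325001-97326000 with 99 CpGs, and its wild-type mean at 10 months was 58.9% ± 3.77 (SD, n = 5), beside 59.1% ± 5.18 (SD, n = 5) in mThy1-α-synuclein mice. Rbmxl2, a testis RNA-binding protein without introns, also had 99 CpGs and was at 35.4% ± 3.03 (SD, n = 5) and 32.4% ± 4.74 (SD, n = 5). Henmt1, which methylates piRNAs, Boll, a germ-cell RNA-binding protein, and Meioc, a meiosis factor, were at 51.5% ± 3.50, 54.4% ± 3.16 and 48.4% ± 2.23 (SD, n = 5) in wild-type mice at 10 months. At Meioc (chr11:102666001-102667000) the wild-type mice read 49.9%, 50.8%, 46.0%, 46.0% and 49.1% and the mThy1-α-synuclein mice 36.6%, 48.2%, 45.4%, 38.5% and 40.4%, so that 4 transgenic mice were below every wild-type mouse. Neither it nor the other promoters of this set were called. The 7-month means at Meioc were 46.8% ± 3.38 (SD, n = 4) in wild-type and 42.6% ± 3.56 (SD, n = 6) in mThy1-α-synuclein mice, or 45.5% and 41.6% without the discordant libraries. Of these 10 promoters, 1, Meioc, had a mean from 35% to 60% with an SD under 5 points in all 4 groups.

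In all, 7740 of 20807 autosomal protein-coding genes (37.2%) had a member in the gene or within 2 kb of it, and 3635 (17.5%) had one within 2 kb of a start. The homeostatic microglia list had a promoter member at 5 of 25 genes, among them C1qb, Irf8, Mef2c and Selplg. The list of microglial activation had one at 6 of 28 genes, namely Apoe, Cd63, Cd74, Cd9, Gpnmb and Spp1. The shares of 20% and 21.4% were close to the share of all protein-coding genes. With the whole gene counted, 16 of 25 homeostatic genes (64%), 9 of 28 activation genes (32.1%), 12 of 16 neuronal genes (75%) and 5 of 8 vessel genes (62.5%) had a member. Longer genes hold more windows, and per window the shares were 2.55%, 2.04%, 2.85% and 1.89%, beside 1.65% of all autosomal windows. For astrocytes, the oligodendrocyte lineage and blood and border immune cells, 50%, 30% and 30.8% of the genes had a member. Their shares per window were 2.69%, 3.09% and 1.27%. Genes of other brain cells had promoter members at 5 of 16 (neurons), 4 of 10 (astrocytes), 1 of 10 (oligodendrocyte lineage), 3 of 13 (blood and border immune cells) and 2 of 8 genes (vessel cells).

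The Irf8 member (chr8:120744001-120745000) lay 980 bp from an annotated start, which need not be the main one. There the wild-type mice of 10 months read 37.1%, 37.2%, 33.3%, 44.3% and 36.6%. The mThy1-α-synuclein mice read 32.6%, 29.7%, 33.2%, 38.7% and 30.2%. The 7-month means were 35.7% ± 7.96 (SD, n = 4) and 28.7% ± 6.90 (SD, n = 6), with an adjusted p of 0.937, and 39.6% and 26.9% without the discordant libraries (adjusted p = 0.687). The transgenic mean was thus lower at both ages, within overlapping groups. The member 856 bp from the start of Selplg, which encodes the selectin ligand PSGL-1 (chr5:113833001-113834000), was at 46.1% ± 3.82 and 38.9% ± 6.08 (SD, n = 5) at 10 months and at 43.9% ± 13.1 (SD, n = 4) and 38.1% ± 9.87 (SD, n = 6) at 7 months (adjusted p = 0.958), or 49.8% and 36.1% without the discordant libraries (adjusted p = 0.769). The member at the start of Gpnmb (chr6:49036001-49037000, 28 CpGs) had an SD under 5 points in all 4 groups, with means of 51.0% ± 4.68 and 47.2% ± 2.36 (SD, n = 5) at 10 months and 50.3% ± 3.82 (SD, n = 4) and 43.6% ± 4.57 (SD, n = 6) at 7 months (adjusted p = 0.936), or 49.9% and 42.6% without the discordant libraries (adjusted p = 0.819). The member 1312 bp from the start of Apoe, the lipid carrier that rises in activated microglia, also stayed under 5 points in all groups, with means of 56.8% and 53.7% at 10 months and 54.7% and 50.5% at 7 months, or 53.9% and 50.1% without the discordant libraries. The named members at C1qb and Cd63 are not detailed, so no common direction at microglial promoters can be read from these windows. Over all members the median difference was -0.611 points at 10 months and -1.11 points at 7 months as labelled.

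Clustered protocadherins, surface proteins of which each neuron uses a few by choosing among many promoters, had the largest share of member windows of the 7 gene families examined. They took 79 of 572 windows (13.8%), and 39 of 58 genes (67.2%) had a promoter member. In the beta cluster 32 of 154 windows were members, in the alpha cluster 24 of 238 and in the gamma cluster 23 of 180. The median levels of the beta members were 51.8% in wild-type and 49.8% in mThy1-α-synuclein mice at 10 months and 49.95% and 47.5% at 7 months. At 10 months the genotype differences of the alpha members ran from -18.96 to 5.34 points with a median of -2.11, and those of the gamma members from -8.42 to 12.7 points with a median of 0.782. At 7 months the alpha median was -3.89 points as labelled and -4.43 without the discordant libraries, and the gamma median -0.675 and -0.502. Genotype differences of the beta members ran from -10.3 to 4.71 points at 10 months and from -9.72 to 4.43 points at 7 months, with medians of -1.74 points as labelled and -3.02 without the discordant libraries at 7 months, and none was called. Other families had smaller shares: 4.22% of the windows of Hox genes, 3.29% of vomeronasal receptors, 2.09% of olfactory receptors and 1.33% of Zfp zinc finger genes. Genes in these clusters are related in sequence and some protocadherin genes share exons, so a window can count for several genes.

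Members seldom lay side by side. Of the 36607 members, 2593 (7.08%) were in 1252 runs of 2 or more, with 67 runs of 3, 8 of 4 and 2 of 5. The longest were at Sfi1, a centrosome gene (chr11:3174001-3179000), and at C230088H06Rik and Gm26624 (chr4:147423001-147428000). Of the 10 longest runs away from imprinted loci, 2 were in Sfi1, 3 in C130026I21Rik, and the others included Bmp6, a growth factor of iron metabolism, and Prkcd, a protein kinase.

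The values in some of these runs lay very close together. At the second Sfi1 run (chr11:3157001-3158000) the wild-type mice read 49.8%, 48.1%, 47.9%, 50.6% and 48.8% and the mThy1-α-synuclein mice 46.6%, 46.5%, 46.9%, 46.6% and 46.9% at 10 months. All transgenic mice were below all wild-type mice, by 2.36 points on average, where the rule had chosen a small wild-type spread. The window was not called, and could not be at this difference, since a call needs at least 25 points. The 7-month means were 47.6% ± 1.46 (SD, n = 4) and 46.3% ± 0.769 (SD, n = 6), or 48.0% and 46.4% without the discordant libraries, and all 20 libraries lay from 45.4% to 50.6%. In C130026I21Rik the member chr1:85087001-85088000 was at 59.5% ± 0.686 and 56.9% ± 1.18 (SD, n = 5) at 10 months, again without overlap and not called, and at 57.3% ± 0.954 (SD, n = 4) and 57.04% ± 1.10 (SD, n = 6) at 7 months, or 57.1% and 56.8% without the discordant libraries. By contrast, the member at the start of Prkcd (chr14:30609001-30610000) spread from 33.4% in the discordant wild-type replicate 2 to 68.8% in wild-type replicate 3 at 7 months.

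Sequence repeated elsewhere in the genome moved with the length of the runs. In 7 of the 10 runs the named window had a mean from 35% to 60% with an SD under 5 points in all 4 groups, beside 1 of 22 at imprinted loci. These 7 include the 2 runs in Sfi1 and the 3 in C130026I21Rik. Windows of the same run or gene are not separate observations, which also holds for the counts below. Among members in runs of 4 or 5 windows, 13 of 42 (31.0%) had 50% or more of their sampled 32-base words elsewhere on the autosomes or the X chromosome, beside 6.69% of the 34014 members with no member next to them. In the 3 windows of C130026I21Rik the share of such words was 81.8% to 100%, in the 2 windows of Sfi1 it was 27.3% and 0%. Of the 1636 members that were stable in all 4 groups, 188 (11.5%) had 50% or more of their words elsewhere, and the median CpG number of the 1636 was 13. Values at repeated sequence can mix copies of the gene, and the part of this in the small spread was not tested.

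The genotype comparison at 10 months uses the wild-type values that chose the members, so it is a description. A window was called when the groups differed by at least 25 points with an adjusted p under 0.01 in a limma fit over all 2280867 windows. Called were 49 of 36607 members, 48 higher and 1 lower in mThy1-α-synuclein mice, beside 0.0327% of all windows (0.0254% higher and 0.00728% lower). The median difference of the members (transgenic minus wild-type) was -0.611 points, the mean was -0.141 points, and the 5th and 95th percentiles were -8.68 and 9.95 points. The same median was -0.112 points in other intermediate windows and -0.582 points in all autosomal windows. The mean over the members ran from 50.6% to 51.4% in the transgenic and from 51.0% to 51.8% in the wild-type libraries, which overlapped, whereas the means over all autosomal windows did not, with 76.46% to 77.04% in transgenic and 77.26% to 77.73% in wild-type libraries. Leaving out any 1 wild-type mouse gave 24 to 31 called members, beside 0.0207% to 0.0264% of all windows, and leaving out mThy1-α-synuclein replicate 2 or 3 gave 31, beside 0.0210%. A single fit of all 20 libraries called 4 members, beside 0.0061% of the windows.

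The called members were gathered on few chromosomes. On chromosome 3, 43 (87.8%) lay between positions 41540001 and 50975000, a stretch bounded by the first and last of them, which also held 230 of the 746 windows called in the whole table (30.8%). Of the 184 other members in it, 121 were higher in mThy1-α-synuclein mice, with a median difference of 4.52 points, beside -0.205 points on the rest of the chromosome. On chromosome 5, 3 (6.12%) lay between 43398001 and 49679000, which held 4.02% of all called windows, and 97 of the 120 other members there were higher. The bounds were set by the called members, so these counts are a description. Chromosomes 4, 9 and 16 had 1 each. The 37 windows between genes and 8 in introns left 3 in promoters and 1 in an exon, and the median CpG number was 6. Among the 48 higher members, 35 were at 80% or more in mThy1-α-synuclein mice, so that they had the level common in the genome there and the intermediate level in wild-type mice.

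In an intron of Sclt1, a gene of the centriole (chr3:41643001-41644000), the wild-type mice of 10 months read 35.7%, 37.3%, 46.8%, 38.5% and 38.1% and the mThy1-α-synuclein mice 98.0%, 94.0%, 100%, 93.8% and 97.3%. In an intron of Slc7a11, the cystine-glutamate exchanger (chr3:50072001-50073000), the values were 34.7%, 34.9%, 36.4%, 40.2% and 36.2% against 87.9%, 87.0%, 89.1%, 87.9% and 89.8%. The groups were far apart at both windows, but in the single fit of all 20 libraries both missed the threshold (adjusted p = 0.0175 and 0.0125 in limma). At 7 months the Slc7a11 window read 80.1% to 87.1% in 5 mThy1-α-synuclein mice and 36.3% in replicate 6. The wild-type replicates 1 to 4 read 70%, 81.2%, 35.6% and 69.8%, which put replicate 2 with the transgenic mice and replicates 1 and 4 between the 10-month groups.

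The member called lower was in an intron of Cyp4a31 (chr4:115573001-115574000), with 2 CpGs. It read 60.9%, 57.1%, 53.1%, 65.1% and 63.6% in wild-type and 29.4%, 20%, 27.9%, 32.5% and 29.2% in mThy1-α-synuclein mice at 10 months. At 7 months both genotypes were near the 10-month transgenic level, with 26.3% ± 15.2 (SD, n = 4) in wild-type and 27.2% ± 7.67 (SD, n = 6) in mThy1-α-synuclein mice, or 32.4% and 24.5% without the discordant libraries. The member chr9:74800001-74801000 lay between genes. It was at 39.4% ± 3.32 in wild-type and 70.7% ± 4.88 (SD, n = 5) in mThy1-α-synuclein mice at 10 months, and at 65.1% ± 10.8 (SD, n = 4) and 69.8% ± 10.3 (SD, n = 6) at 7 months, or 61.2% and 69.2% without the discordant libraries. The calls of the Cyp4a31 window, the chromosome 9 window and the window chr5:46774001-46775000 were lost whenever 1 mouse of either group was left out, with adjusted p-values in limma of 0.0172 to 0.0347, 0.0140 to 0.0299 and 0.0135 to 0.0319.

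**Figure D5:**
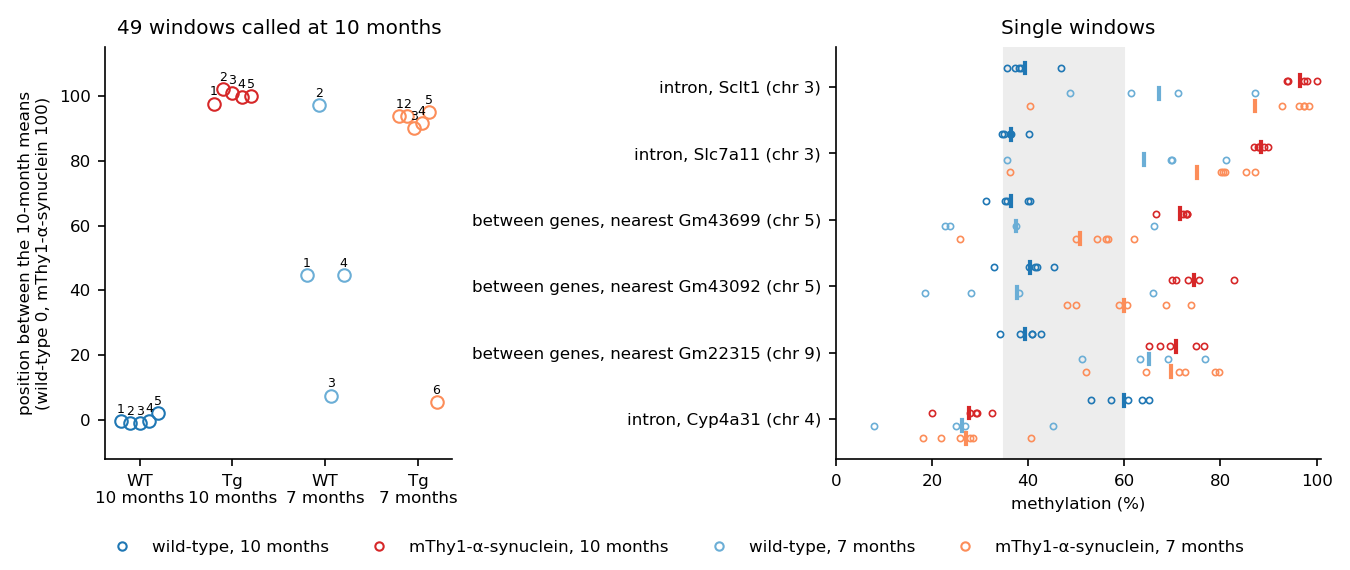
Left, mean position of each library (numbered by replicate) over the 49 called windows on a scale where the 10-month wild-type mean is 0 and the mThy1-α-synuclein mean is 100; right, methylation (%) of each library (circles) and group mean (bars) in 6 of these windows. At 7 months mThy1-α-synuclein replicate 6 lies at 5.54 and wild-type replicate 2 at 97.1, and wild-type replicates 1 and 4 lie at 44.7 and 44.6.

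The 7-month mice were not used by the rule. Over the 49 called windows, on a scale where the 10-month wild-type mean is 0 and the transgenic mean is 100, mThy1-α-synuclein replicates 1 to 5 were at 89.9 to 94.8 and replicate 6 was at 5.54. Wild-type replicate 3 was at 7.61, replicates 1 and 4 were at 44.7 and 44.6, and replicate 2 was at 97.1. All 48 members that were higher in transgenic mice at 10 months were also higher at 7 months, by a median of 10.7 points (0.794 to 27.3) as labelled and 22.6 points (6.75 to 42.9) without the discordant libraries, beside 40.6% of all members and 46.2% of all autosomal windows that were higher as labelled. Of these windows 43 shared the stretch of chromosome 3, so they are not separate observations. Of the 49 called windows, 9 had an unadjusted p under 0.05 in limma as labelled. Without the discordant libraries, which lay far from their groups in these same windows, 43 did.

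No member was called at 7 months. With the groups as labelled, 0 of 36388 members passed 25 points and an adjusted p under 0.01 in limma, beside 0% of all 2260746 windows, and 1537 members (4.22%) had an unadjusted p under 0.05, beside 5.28% of all windows. Without the discordant libraries 0 members passed as well, beside 0.0146% of all windows, with 2334 (6.41%) at an unadjusted p under 0.05, beside 6.65% of all windows. With an adjusted p under 0.05 in place of 0.01, 6 members passed without the discordant libraries, all higher in mThy1-α-synuclein mice, beside 0.0345% of all windows. They included 3 on chromosome 1, the Sclt1 window (35.98 points, adjusted p = 0.0244) and a window on chromosome 16 (42.9 points, adjusted p = 0.0311). The lower threshold was chosen after seeing the data.

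Across the members the median difference at 7 months was -1.11 points as labelled and -1.65 points without the discordant libraries, beside -1.31 and -1.94 points in other intermediate windows and -0.276 and -0.437 points in all autosomal windows. The mean over the members was 50.3% ± 1.16 (SD, n = 6) in mThy1-α-synuclein and 51.4% ± 0.509 (SD, n = 4) in wild-type libraries, with ranges of 48.8% to 51.5% and 50.9% to 51.9% that overlapped. At the named windows of imprinted loci, runs, marker genes and CpG-rich promoters the 7-month differences were at most 11.4 points in either direction as labelled and at most 13.996 points without the discordant libraries, and no adjusted p was under 0.936 as labelled or under 0.687 without the discordant libraries. A p of this size does not show that the groups were equal.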

How the data were processed

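The deposited values are the fraction of methylated CpG calls in consecutive 1000-bp windows, 1 table per age, which the authors made by trimming with Trim Galore (0.6.7), aligning to mm10 with Bismark (0.23.1) and Bowtie2 (2.2.5) and summarising with methylKit (1.22.0). The tables give no read counts, so the depth is unknown, no counting interval can be given, and the number of mice limits the precision. The 2 ages were tabulated separately, so an effect of age cannot be told apart from one of processing. The study sequenced the libraries in 2 batches that the labels do not assign. No column was left unused (0).

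Groups came from the labels, and each library was 1 mouse, so p-values measure the spread between these mice. The members and lists were chosen with earlier results of these data known. Genotypes were compared per age with limma (3.58.1, R 4.3.3) over all windows, with Benjamini-Hochberg adjustment. The scale was the log2 ratio of methylated to unmethylated percent, with 1 point added to both. A call needed an adjusted p under 0.01 and a difference of at least 25 points. Differences are given in points and not on the log2 scale. In a test on simulated data, 151 of 200 shifted windows were called at 10 months with 0 unchanged windows, and 126 of 200 at 7 months with 2. The shift was larger than the limit of 25 points and the shifted windows had a small spread. The test therefore does not give the recovery of differences near the limit or in windows of larger spread. Replicate numbers recur across groups, but deviations of same-numbered libraries correlated at -0.00635 to 0.00449 (10 months) and -0.0332 to 0.0423 (7 months), so they were not taken as pairs.

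Gene parts (promoter within 2 kb of a start, then exon, intron, between genes) came from the annotation, and CpGs, motifs and copies from the GRCm38 sequence. Windows are named by rule: at imprinted loci the member with the most CpGs, the 10 longest runs, up to 3 marker genes a list, the called members with the largest differences (at most 2 a chromosome), and the 10 CpG-rich promoters. The Thy1 window, the windows called at 7 months under the lower threshold, and the member with an age difference were named after their values were seen. Some windows are not reported here. Alternatives covered the limits of the rule, the thresholds, the scale, the fit, gene parts and each mouse left out. Python (3.11.15) with pandas (2.3.3) and numpy (2.4.6) was used.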

Additional observations from a re-analysis of the deposited data

Results flagged for a closer look

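In 268 sets of libraries (named windows by group, and the position over the called windows), 22 held a library far from the rest of its group. Chance gives about 1 in 20 groups, so single cases are expected.

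At imprinted loci, wild-type replicate 2 read 57.8% at the Peg3 window at 7 months, with the nearest library at 44.1%. At Inpp5f, mThy1-α-synuclein replicate 5 read 58.2% at 10 months, with the nearest at 43.9%. At Mkrn3, wild-type replicate 1 read 34.3% at 7 months, with the nearest at 40.9%.

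In the runs, the Bmp6 window had mThy1-α-synuclein replicate 4 at 64.7% and wild-type replicate 2 at 60.05% at 10 months, each above its group. In C130026I21Rik, mThy1-α-synuclein replicate 4 read 54.8% in the window at 85087001 on chromosome 1 and replicate 5 read 47.4% in the window at 85071001, both the lowest of their group at 10 months.

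Among marker and CpG-rich promoters, the libraries apart at 10 months were mThy1-α-synuclein replicate 3 at Gja1 (51.1%) and Boll (62.2%), and wild-type replicate 4 at Usp35 (52.2%). At 7 months they were mThy1-α-synuclein replicate 3 at Selplg (19.1%), replicate 1 at Cd3e (45.1%) and replicate 6 at Boll (69.5%), and wild-type replicate 1 at Henmt1 (43.3%) and replicate 2 at Ssbp4 (63.2%).

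In the windows called at 10 months, mThy1-α-synuclein replicate 6 read 40.4% at the Sclt1 window and 36.3% at the Slc7a11 window at 7 months, where the nearest libraries of its group were at 92.7% and 80.1%, and its position over all called windows was 5.54. Wild-type replicate 3 read 46.8% at the Sclt1 window at 10 months, and wild-type replicate 5 had a position of 2.21. At the window 43398001 on chromosome 5, mThy1-α-synuclein replicate 4 was the lowest at 10 months (66.7%) and another mouse, also numbered 4, the lowest at 7 months (25.8%).

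In 1 member the genotype difference itself differed between the ages by a limma interaction term over all windows (adjusted p = 0.00773), beside 17 of 2214076 windows. The term uses the 10-month wild-type values that chose the members, so it is a description and no independent test. The window, chr14:56826001-56827000, lies between genes and holds 2 CpGs. The mThy1-α-synuclein minus wild-type difference was 14.3 points at 10 months and -28.8 points at 7 months (-27.7 without the discordant libraries), and the groups did not overlap at either age. The ages were tabulated separately, so an effect of age cannot be told apart from one of processing.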

How the results depend on the processing

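The number of members followed the limit on the spread, with 19530 windows at an SD under 4 points, 56703 under 6 points, and 43787 to 46945 when 1 wild-type mouse was left out. With 1 mouse left out, 81.7% to 82.8% of the members still met the rule. They made up 64.6% to 68.3% of the windows that met it then. The share of members with a mean from 30% to 65% was 94.4% in mThy1-α-synuclein mice at 10 months and 95.8% and 95.3% in wild-type and mThy1-α-synuclein mice at 7 months. Counting promoters within 1 kb gave 8.97% promoter, 3.404% exon, 36.5% intron and 51.1% between genes (all autosomal windows 6.47%, 3.52%, 41.1% and 48.9%), and taking the gene body first gave 4.49% promoter, 5.67% exon and 40.8% intron (all 3.12%, 5.32% and 44.3%).

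The number of members called at 10 months was 105 at an adjusted p under 0.05 (0.0805% of all windows), 91 on the percent scale (0.0394%), 78 with a pseudocount of 5 points (0.0481%), 4 in 1 fit of all 20 libraries (0.0061%), and 24 to 52 when 1 mouse was left out. The replicate block left 2 called at 10 months (0.0102% of all windows) and 0 at 7 months, where the numbers do not pair the mice (0 of 5 and 1 of 4 libraries correlated best with their own number). The mean difference of the members at 10 months was -0.141 points, where the median was -0.611. At 7 months 6 members were called without the discordant libraries at an adjusted p under 0.05, and 0 with a minimum difference of 10 points, both chosen after seeing the data. The cause of these changes was not tested. With unknown depth, a window of few CpGs or reads cannot be told from one that varies between mice.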
